A study of Mus musculus with 51 samples.

Results

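CD8+ T cells that carry CD69 but not CD103 were followed in AT3-OVA mammary tumors of mice from week 1 to week 6. The members are the 11 untreated tumor libraries whose labels give the sorted subset as CD103-CD69+, called SP here, out of 51 libraries in the series. There were 3 libraries at week 1, 3 at week 2, 2 at week 4 and 3 at week 6, and none had received treatment. The tumors grow from AT3-OVA, mammary carcinoma cells given ovalbumin as a model antigen, so every tumor group comes from tumors of 1 line. The other 2 sorted subsets from the same weeks share the untreated table: CD103+CD69+ cells, called DP (13 libraries), and CD103-CD69- cells, called DN. So do naive, central memory and effector memory T cells from control spleens, with 3 libraries each. All these groups enter the estimate of the spread and each gene's mean over the table. The labels do not give the strain, sex or age of the mice, nor whether a library is 1 animal or a pool, so p-values measure the spread between these samples only, which may in part be technical. Messenger RNA was read with QuantSeq, a method that sequences a single tag near the 3' end of each transcript. The values are the authors' normalized values, read as log2. They are not abundances, since gene means ran from -28.0 to 39.4, so only differences within a gene are interpreted. Read depth per library is unknown.

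CD69 keeps T cells in tissue by pulling the egress receptor S1PR1 off the cell surface, and CD103 binds E-cadherin on epithelium. T cells held under chronic antigen, as in tumors, are known to raise the nuclear factor TOX and the inhibitory receptor PD-1 (gene Pdcd1). Cells that can still recirculate keep TCF7, LEF1, KLF2 and FOXO1, a set of regulators that sustains quiescence, lymph node homing and self-renewal. SATB1, a chromatin-organising factor, is abundant in thymocytes and naive T cells.

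Promoters of 4 genes are shown because these genes stand for the contrasting courses described below, Pdcd1 and Vipr2 for genes that were higher after week 1 and Satb1 and Klf2 for genes that were lower at week 6. Each run is the 250 bases before the annotated start, from RefSeq on GRCm38.p6. They are Pdcd1 at chr1:94052554-94052803 (minus strand), Vipr2 at chr12:116077476-116077725 (plus), Satb1 at chr17:51833291-51833540 (minus) and Klf2 at chr8:72318812-72319061 (plus). Capitals mark the GC box GGGCGG, letters bound by KLF family proteins and their relatives, and in Klf2 also the MEF2 motif.
Pdcd1: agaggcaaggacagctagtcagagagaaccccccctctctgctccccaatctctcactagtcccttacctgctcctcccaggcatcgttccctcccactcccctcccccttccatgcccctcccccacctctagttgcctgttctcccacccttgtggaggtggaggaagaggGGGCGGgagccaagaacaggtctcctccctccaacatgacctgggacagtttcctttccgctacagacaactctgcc
Vipr2: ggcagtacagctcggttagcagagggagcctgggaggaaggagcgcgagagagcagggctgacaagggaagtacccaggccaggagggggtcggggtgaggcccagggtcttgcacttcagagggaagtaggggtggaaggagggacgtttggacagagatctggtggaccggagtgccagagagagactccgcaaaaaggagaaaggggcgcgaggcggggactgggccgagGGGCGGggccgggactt
Satb1: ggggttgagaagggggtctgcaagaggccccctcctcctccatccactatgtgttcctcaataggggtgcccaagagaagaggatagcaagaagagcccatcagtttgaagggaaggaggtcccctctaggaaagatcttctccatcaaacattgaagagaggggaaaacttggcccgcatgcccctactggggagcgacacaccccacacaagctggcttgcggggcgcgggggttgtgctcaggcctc
Klf2: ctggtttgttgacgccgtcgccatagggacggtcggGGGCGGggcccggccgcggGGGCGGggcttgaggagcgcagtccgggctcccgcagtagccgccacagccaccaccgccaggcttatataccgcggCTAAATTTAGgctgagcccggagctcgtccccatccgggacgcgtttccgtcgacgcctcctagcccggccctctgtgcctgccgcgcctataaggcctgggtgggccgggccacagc
Both strands were searched, the motif set was chosen after these sequences had been read, and no motif overlapped another. The GC box stood in 60.7% of the 7684 measured genes that have an entry, in 60.0% of the genes higher at week 6 than at week 1 and in 54.5% of those lower. The MEF2 motif stood in 2.65% of measured genes, and in Klf2 it read CTAAATTTAG, 118 bases before the start. The letters of AP-1 (TGANTCA), of NFAT with its flank (TGGAAA), of RBPJ (TGGGAA) and of FOXO (GTAAACA) were searched too and were not found in these 4 windows. Tox has no entry and is named only.

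The sort was checked first. Itgae, which encodes CD103, had values of 12.81, 12.69 and 14.04 in the SP libraries of week 1, 13.88, 14.28 and 14.41 at week 2, 13.36 and 15.11 at week 4, and 13.09, 12.99 and 12.93 at week 6. The mean was lower in SP than in DP at each week, at 13.18 against 13.99, 14.19 against 15.57, 14.23 against 15.06 and 13.01 against 14.43. The week 4 library at 15.11 lay inside the DP range of that week, 14.42 to 15.55. Between weeks 1 and 6 Itgae differed by -0.18 (SE 0.56, adjusted p = 0.91) and Cd69 by -0.32 (SE 0.36, adjusted p = 0.713). Leaving out the third week 1 library, the one at 14.04, turned the Itgae difference to 0.256. Cd69 means were 0.31, 0.90, 0.29 and -0.01 in SP, above those of DN at every week (-0.55, -0.05, -0.47 and -0.71). Of the 8 CD8 T-cell markers measured, 1 rose between weeks 1 and 6 (Cd8a). A positive difference was seen in 7 of them and in 51.9% of all genes.

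Between week 1 and week 6, 3 of 13 checkpoint receptors rose in SP cells and 8 of 13 regulators of naive and stem-like T cells fell. Tox rose by 1.56 (SE 0.24), Pdcd1 by 1.78 (SE 0.35) and Cxcr6, the receptor for the chemokine CXCL16, by 1.58 (SE 0.22), while Satb1 fell by 1.54 (SE 0.24) and Klf2 fell by 2.83 (SE 0.53). This end comparison asked how far the subset had moved over the whole course. limma called 287 of 10560 genes, 2.72%, at a Benjamini-Hochberg adjusted p below 0.05, with 142 higher at week 6 (1.34%) and 145 lower (1.37%), and the median difference over all genes was 0.02. At an unadjusted p below that level there were 1789. Over all genes, 51.9% of the differences were positive and 48.1% negative. These shares, and the shares called higher and lower, are the background for the list counts of weeks 6 and 1 below. In sorted bulk samples, a smaller share of cells with a transcript and less of it per cell cannot be told apart.

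The count depended on each of the 6 libraries compared. It was 86, 111 and 146 without the first, second and the third library of week 1, and 69, 102 and 93 without those of week 6. The 11 libraries span 3 runs of library codes, and within the run that holds 9 of them it was 73. Of 58 called genes that are named by rule or in the text, 15 kept the call in all alternatives that could be run for them: Tox, Satb1, Vipr2, Inpp4b, Fasl, Id2, Ccl5, Tnfsf4, Itgb7, Ly6c2, Fam65b, Foxo1, Gbp2, Ttn and Krt8. Pdcd1, Cxcr6, Rbpj, Klf2 and Foxp1 lost it only when the fit was limited to the groups compared, with adjusted p between 0.052 and 0.07. That fit kept the reduction of degrees of freedom given under processing, though its own residual rank was full (7 of 7).

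**Figure D1:**
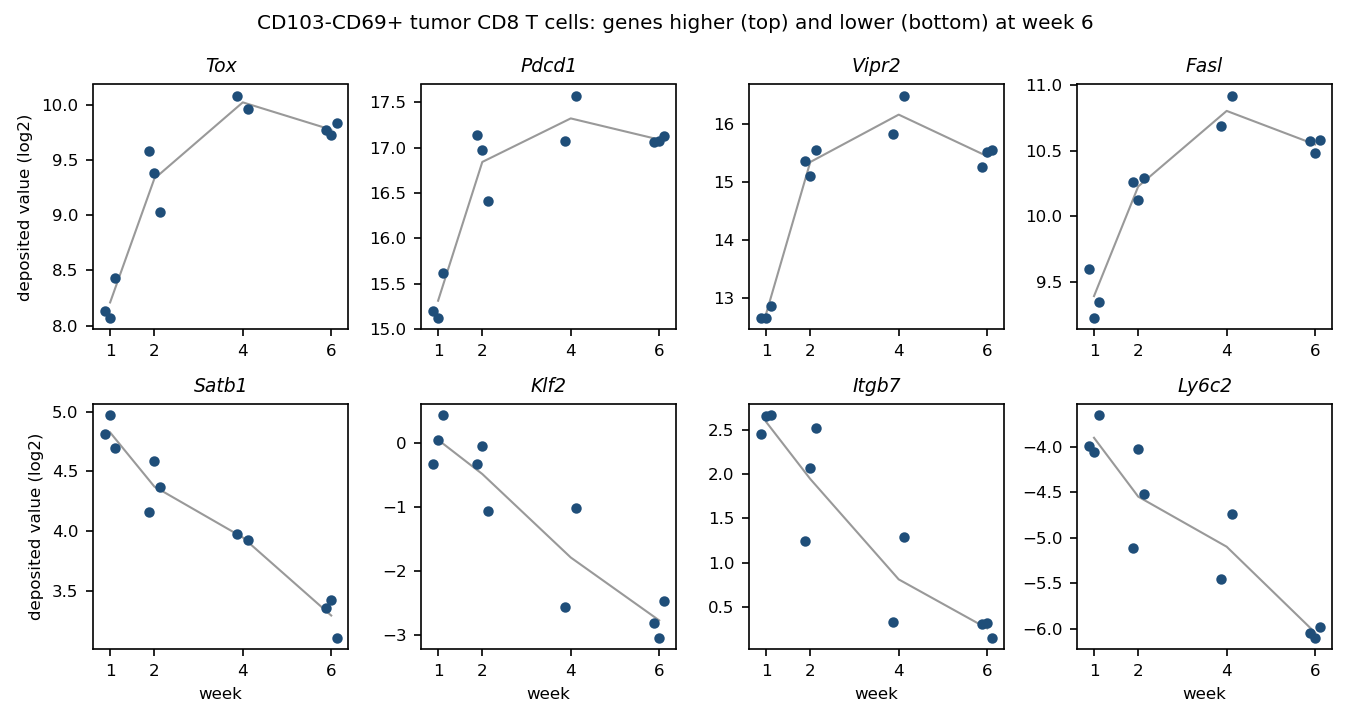
Values of 8 genes in each CD103-CD69+ library (points) against week, with the mean of each week joined by a line; the y axis is the deposited value, read as log2, and differs between panels. The upper genes sit higher from week 2 on and the lower genes reach their lowest mean at week 6.

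Of the inhibitory receptors, Pdcd1 stood at 15.20, 15.12 and 15.62 in the week 1 libraries, at 17.14, 16.97 and 16.42 at week 2, at 17.07 and 17.57 at week 4, and at 17.06, 17.07 and 17.13 at week 6. All 8 later libraries lay above all of week 1. The difference between weeks 6 and 1 was 1.78 (SE 0.35, limma adjusted p = 0.0106), and that between weeks 2 and 1 was 1.53 (SE 0.35, adjusted p = 0.0224). Cd200r1, an inhibitory receptor of the CD200 pathway, rose by 2.45 (adjusted p = 0.012) and Tigit, an inhibitory receptor for nectin-like ligands, by 1.95 (adjusted p = 0.0281). Of 13 measured checkpoint receptors these 3 rose by week 6, none fell, 11 had a positive difference and the median was 0.73. For Lag3 the difference was 1.30 (adjusted p = 0.173), for Havcr2, the gene of TIM-3, it was 0.61 (adjusted p = 0.297) and for Entpd1, the ectoenzyme CD39, it was 0.80 (adjusted p = 0.299). The Cd200r1 call was lost without the first library of week 1 (adjusted p = 0.075) or of week 6 (0.053). The Tigit call was lost without any 1 of 5 libraries, the first and second of week 1 and each of week 6, with adjusted p from 0.087 to 0.124.

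Among transcription factors of chronic stimulation, Tox read 8.13, 8.07 and 8.43 at week 1, then 9.58, 9.38 and 9.03 at week 2, 10.08 and 9.96 at week 4, and 9.77, 9.72 and 9.83 at week 6. No week 1 library reached the range of any later week, and week 4 was the highest. The rise between weeks 1 and 6 had an adjusted p of 0.00161 (limma), and 1.12 of it was present at week 2 (SE 0.24, adjusted p = 0.0161). Rbpj, the DNA-binding effector of Notch signalling, had means of 8.45, 9.86, 10.17 and 9.85 and rose by 1.40 (SE 0.24, adjusted p = 0.00393). Id2, an inhibitor of E-protein transcription factors, had means of 6.04, 6.31, 6.86 and 7.06 and rose by 1.01 (SE 0.19, adjusted p = 0.00756). Nfatc2, a calcium-driven factor of T-cell activation, fell by 0.57 (adjusted p = 0.0154), a call lost without the second library of week 1 (0.076) or the third of week 6 (0.075). Of 15 listed factors these 3 rose and 1 fell, with a median of 0.51 and 12 positive differences. Nr4a2 was at 1.31 (adjusted p = 0.12), Batf at 0.51 (adjusted p = 0.32) and Ikzf2 at -0.12 (adjusted p = 0.92). Of the 3 genes given as markers of this course, Tox, Pdcd1 and Satb1, all passed, but they were chosen with results of these data known.

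Receptors and effectors of tissue T cells rose in part. Vipr2, a receptor for the neuropeptide VIP, read 12.64, 12.65 and 12.85 at week 1 and between 15.11 and 16.49 in all 8 later libraries. Its difference was 2.73 between weeks 6 and 1 (SE 0.33, adjusted p = 0.000561) and 2.63 between weeks 2 and 1 (adjusted p = 0.000513); no later library came near those of week 1. Cxcr6 read 7.56, 7.40 and 7.86 at week 1, 8.74, 8.60 and 7.91 at week 2, 8.96 and 8.27 at week 4, and 9.17, 9.17 and 9.21 at week 6, with an adjusted p of 0.00116 for weeks 6 and 1. Inpp4b, a phosphatase of phosphoinositide signalling, rose by 1.06 (SE 0.14, adjusted p = 0.00116). Cxcr6 and Inpp4b were the 2 of 20 measured residency genes that rose, where 1.34% of all genes rose. None fell, and the median was 0.29. Other residency genes were at -0.18 (Itgae), 0.40 (Itga1, the collagen-binding integrin chain), 0.03 (Runx3) and 0.59 (Zfp683, encoding HOBIT), none of which passed.

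Among effector genes, Fasl, the death ligand, read 9.60, 9.22 and 9.35 at week 1, 10.26, 10.13 and 10.29 at week 2, 10.69 and 10.92 at week 4, and 10.58, 10.48 and 10.58 at week 6, and rose by 1.16 (SE 0.17, adjusted p = 0.00119). Prf1, the pore-forming protein of granules, rose by 1.92 (adjusted p = 0.0336), a call lost without any 1 of the 6 libraries compared, with adjusted p from 0.071 to 0.118. Fasl and Prf1 were the 2 of 14 measured granule and death genes that rose, none fell, and the median was 0.31. Differences of -2.01 for Gzmb (adjusted p = 0.0875), 1.52 for Gzma (0.0669) and 0.69 for Nkg7 (0.0623) did not pass. Of 15 cytokine and chemokine genes 1 rose, Ccl5, a chemokine of effector T cells, and the median was 0.33. Ccl5 read -0.56, -0.41 and -0.48 at week 1, -0.27, -0.33 and -0.53 at week 2, 0.22 and 0.01 at week 4, and 0.92, 0.96 and 1.09 at week 6, so weeks 1 and 2 overlapped and week 6 stood above them (1.47, SE 0.25, adjusted p = 0.00356). Ifng was at 0.33 (adjusted p = 0.66) and Ccl3 at 1.60 (adjusted p = 0.056). Tnfsf4, the OX40 ligand, had means of -4.01, -2.86, -1.42 and -0.99 and rose by 3.02 (SE 0.48, adjusted p = 0.00238).

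**Figure D2:**
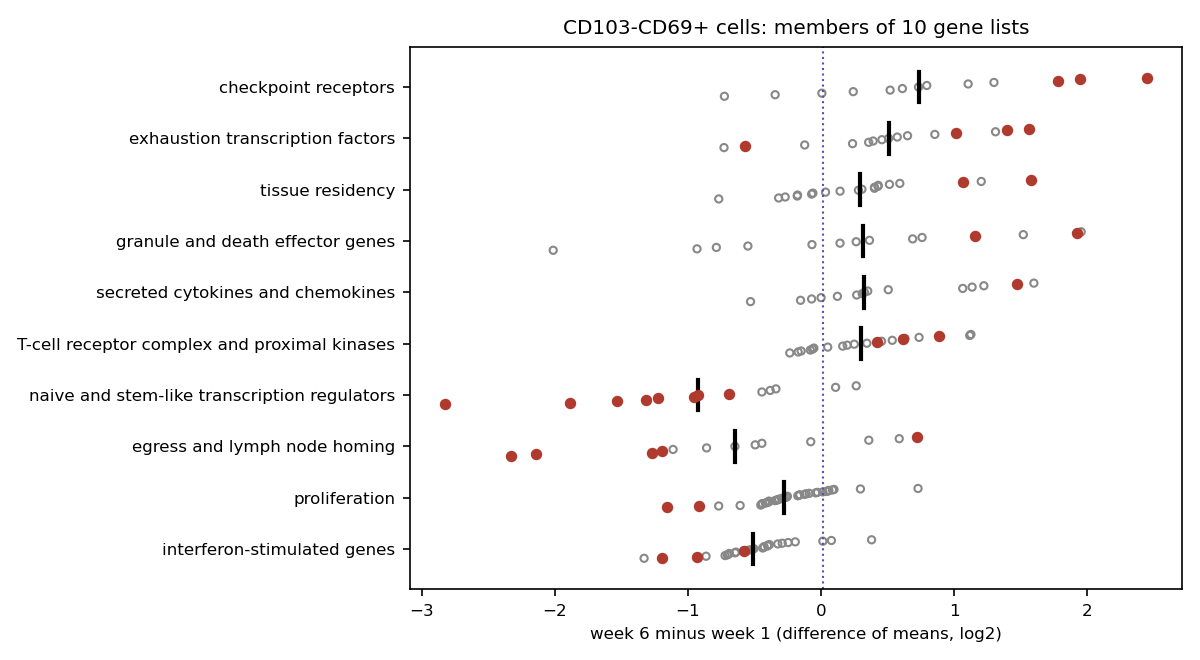
Difference of means between week 6 and week 1 on the log2 scale for each measured member of 10 gene lists. Filled points passed the limma test at an adjusted p below 0.05, open points did not, thick bars are list medians and the dotted line is the median of all genes, 0.02; the regulators of naive and stem-like cells have the lowest median of these lists, -0.92.

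Among regulators of naive and stem-like cells, Satb1 read 4.81, 4.97 and 4.69 at week 1, 4.16, 4.59 and 4.37 at week 2, 3.97 and 3.92 at week 4, and 3.35, 3.42 and 3.10 at week 6, and no 2 weeks overlapped. The fall between weeks 1 and 6 had an adjusted p of 0.00161. Klf2, a factor that drives lymph node homing and egress genes, read -0.33, 0.05 and 0.43 at week 1, -0.34, -0.05 and -1.07 at week 2, -2.57 and -1.02 at week 4, and -2.81, -3.05 and -2.47 at week 6 (adjusted p = 0.00756). Weeks 1 and 2 overlapped, the 2 week 4 libraries lay far apart, and week 6 was below weeks 1 and 2 throughout. Of 13 measured members 8 fell, none rose, 11 had a negative difference and the median was -0.92, where 1.37% of all genes fell. Foxo1, an upstream activator of Klf2, fell by 0.92 (adjusted p = 0.00374), Foxp1, a quiescence factor, by 0.69 (adjusted p = 0.0106), Myb, a self-renewal factor, by 1.22 (adjusted p = 0.0115), Tcf7 by 1.32 (adjusted p = 0.0124), Lef1, its close relative, by 1.89 (adjusted p = 0.0167) and Klf7 by 0.96 (adjusted p = 0.0246). Tcf7 had means of 4.36, 4.09, 2.75 and 3.05, and Lef1 of -0.68, -1.88, -2.82 and -2.57, so both were lowest at week 4. Ets1 (0.27), Bach2 (-0.44), Klf3 (-0.38), Bcl6 (-0.34) and Zeb1 (0.11) did not pass. Leaving out 1 library ended the calls of Tcf7 (first or second of week 1, first of week 6), Myb (second of week 1, first of week 6), Klf7 (first or second of week 1 or of week 6) and Lef1 (all of week 1, the first or the third of week 6), with adjusted p from 0.051 to 0.137.

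Egress and lymph node homing genes split. Itgb7, the integrin chain that pairs with CD103 or with the alpha4 chain, read 2.45, 2.65 and 2.66 at week 1, 1.24, 2.07 and 2.52 at week 2, 0.33 and 1.29 at week 4, and 0.31, 0.32 and 0.15 at week 6. All of week 6 lay below all other libraries, though its highest value and the lower week 4 library were nearly equal. The difference from week 1 was -2.33 (SE 0.38, adjusted p = 0.003). Ly6c2, a surface protein of circulating memory CD8 T cells, fell by 2.14 (SE 0.33, adjusted p = 0.00169), Fam65b, an inhibitor of RhoA, by 1.20 (adjusted p = 0.00274) and Rasgrp2, an activator of Rap1 in integrin signalling, by 1.27 (adjusted p = 0.0269). Itga4, the alpha4 chain itself, rose by 0.72 (adjusted p = 0.0297). Of 13 members 4 fell and 1 rose, and the median was -0.65. S1pr1, the egress receptor, had means of -3.67, -4.65, -5.63 and -4.53, a difference of -0.86 (adjusted p = 0.382). The Rasgrp2 and Itga4 calls were lost on leaving out most single libraries of weeks 1 and 6: for Rasgrp2 each of week 1 and the first and second of week 6, and for Itga4 all 6, with adjusted p from 0.051 to 0.118.

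Components of the T-cell receptor machinery had small differences. Of 20 measured genes 3 rose and none fell, with a median of 0.30: Cd6, an adhesion co-receptor, by 0.89 (adjusted p = 0.0116), Cd8a by 0.62 (adjusted p = 0.0161) and Zap70, the proximal kinase, by 0.42 (adjusted p = 0.0297). Cd8a read 9.48, 9.56 and 9.60 at week 1 and between 10.06 and 10.50 in all later libraries, so week 1 did not overlap the rest. Single libraries ended these calls: for Cd6 the first of week 1 (0.053), for Cd8a the first and second of week 1 and each of week 6 (0.051 to 0.075), and for Zap70 all 6 (0.057 to 0.124). Among 39 proliferation genes 2 fell and none rose, with a median of -0.28: Ccne1, the cyclin of S-phase entry, by 1.15 (adjusted p = 0.0325) and Cdc6, a replication licensing factor, by 0.92 (adjusted p = 0.048). Mki67 was at -0.29 (adjusted p = 0.501). Among 28 interferon-stimulated genes 3 fell, none rose and the median was -0.51. They were Gbp2, an interferon-induced GTPase, by 1.19 (adjusted p = 0.00682), Ly6a, by 0.93 (adjusted p = 0.0255), and Zbp1, a nucleic acid sensor, by 0.58 (adjusted p = 0.0196). For Ccne1, Cdc6 and Ly6a the call was lost without any 1 of the 6 libraries, and for Zbp1 without any but the second of week 1, with adjusted p from 0.052 to 0.162; Cdc6 also lost it without the second library of week 2 (0.053).

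Outside these lists, further genes were chosen by rule for their size of change. Glp1r, the receptor for the incretin GLP-1, rose by 3.56 (SE 0.73, adjusted p = 0.0116), from 4.68, 6.43 and 5.35 at week 1 to 9.22, 8.97 and 8.96 at week 6. That call was lost without the first library of week 1 (0.069) or of week 6 (0.053). Ttn, which encodes the giant muscle protein titin, read 12.43, 12.11 and 11.86 at week 1 and 14.57, 14.42 and 14.48 at week 6, with the 2 week 4 libraries between, at 13.99 and 13.26 (2.36, SE 0.35, adjusted p = 0.00119). Of the 10 largest falls, 5 were epithelial genes, Krt8, Krt18 and Krt19 (keratins), Dsp (desmoplakin, of desmosomes) and Csn3 (a milk casein).

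The mean of the tumor epithelium markers dropped after week 1. Krt8, Krt18 and Krt19 are themselves among these markers, so that drop is not separate from their falls. The mean of 7 measured epithelial markers, each centred on its mean over the table, was 1.67 to 1.99 in the 3 SP libraries of week 1, -0.14 to 0.10 at week 2, -0.53 and 0.75 at week 4 and 0.07 to 0.23 at week 6. Krt8 read 11.07, 11.14 and 10.44 at week 1, 8.61, 7.79 and 7.65 at week 2, 7.67 and 9.02 at week 4, and 7.55, 7.82 and 7.67 at week 6, a fall of 3.21 (SE 0.63, adjusted p = 0.0107). Of the 7 markers 3 fell between weeks 1 and 6, the keratins, none rose and the median was -1.99. The calls of Krt18 and Krt19 were lost without any 1 of the 6 libraries, with adjusted p from 0.055 to 0.124. Myeloid markers moved otherwise: the mean over 16 was -0.34 to 0.14 at week 1, -1.26 to -0.19 at week 2, -0.16 and -0.00 at week 4 and 0.44 to 0.59 at week 6, none of the 16 passed between weeks 1 and 6, and the median difference was 0.62. The mean over 5 stroma and endothelium markers was 0.65 to 0.71 at week 1, -1.50, -0.24 and -0.47 at week 2, -0.49 and -0.21 at week 4 and 0.24 to 0.52 at week 6, and none of the 5 passed between any of these weeks. The mean over 3 erythroid and platelet markers was 0.36 to 0.82 at week 1, -1.73 to 0.14 at week 2, 1.45 and 1.21 at week 4 and 0.19 to 0.33 at week 6, and none of the 3 passed. The mean over 6 B-cell markers was -0.55 to 0.34 at week 1 and -1.58 to 0.23 at week 2. It was 0.10 and 0.41 at week 4 and 0.42 to 0.50 at week 6. Of these markers Igkc, the kappa light chain, rose by 3.78 (adjusted p = 0.0209), while Cd79a, a part of the B-cell receptor, was at -0.29 and did not pass. Of 8 markers of CD4 and regulatory T cells, Foxp3 fell by 2.36 (adjusted p = 0.0166) and Ikzf4 rose by 1.58 (adjusted p = 0.0194). The Igkc, Foxp3 and Ikzf4 calls were each lost without 5 of the 6 libraries, all but the third of week 1 for Igkc and all but the second of week 1 for Foxp3 and Ikzf4, with adjusted p from 0.052 to 0.098. The mean over 8 CD8 T-cell markers was -0.12 to -0.05 at week 1, 0.09 to 0.45 at week 2, 0.34 and 0.39 at week 4 and 0.37 to 0.40 at week 6. Levels here have no true zero, so no marker can be called absent. The part of these other cells in the results above was not tested.

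**Figure D3:**
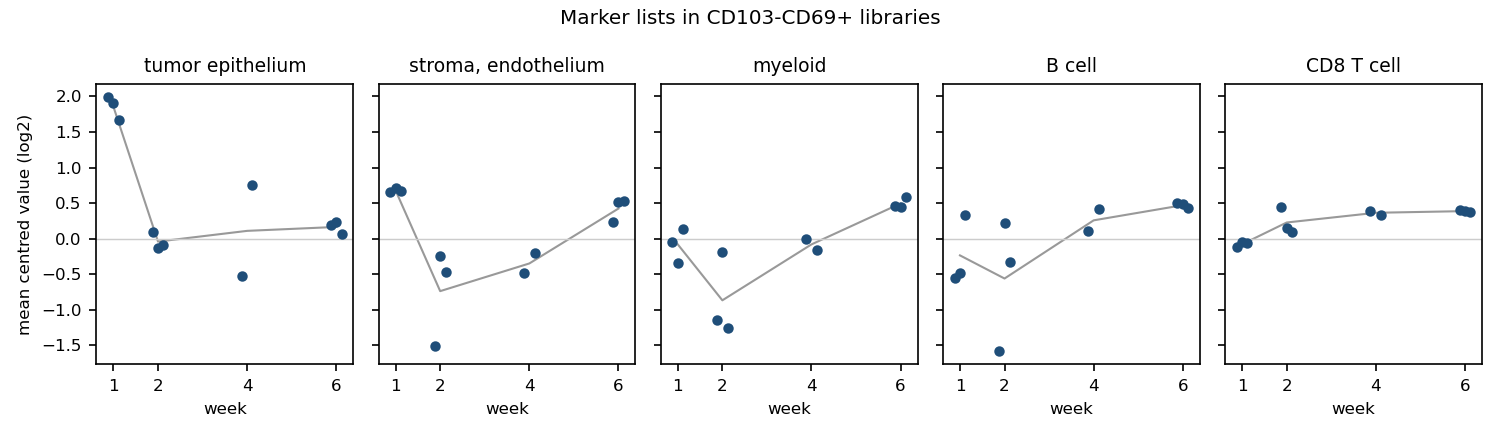
Mean of the measured markers of 5 cell types in each CD103-CD69+ library (points) against week, each marker centred on its mean over the untreated table, on the log2 scale; lines join the means of the weeks. Epithelial markers are high in the 3 week 1 libraries, 1.67 to 1.99, and myeloid markers are lowest at week 2 and highest at week 6.

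In the first step, from week 1 to week 2, Dst, Cald1, Yap1 and Dock1 fell and Vipr2, Rbpj, Tox and Pdcd1 rose. In all, limma called 282 genes, 2.67%, with 65 higher (0.616%) and 217 lower (2.05%), and the median over all genes was -0.03. Quantile normalization gave 92 higher and 129 lower. The genes lower at week 2 by the smallest p are known from adherent cells: Dst, a cytoskeletal linker of hemidesmosomes, fell by 2.39 (SE 0.25, adjusted p = 4.35e-05), Cald1, caldesmon, by 2.35 (adjusted p = 0.000513), Yap1, the Hippo pathway coactivator, by 2.09 (adjusted p = 0.000513) and Dock1, an activator of Rac, by 2.79 (adjusted p = 0.000513). Dst read 11.95, 11.87 and 11.43 at week 1 and 9.03, 9.54 and 9.51 at week 2, beside the drop of epithelial markers and the stroma means of 0.65 to 0.71 and -1.50 to -0.24 given above; the part of either in its fall was not tested. The genes higher by the smallest p were Vipr2, Cish, a feedback inhibitor of cytokine and T-cell receptor signalling (1.12, SE 0.16, adjusted p = 0.000759), Inpp4b (0.91, adjusted p = 0.00186) and Rbpj (1.42, adjusted p = 0.00368). Fasl rose by 0.84 (adjusted p = 0.0111). Among checkpoint receptors 4 of 13 rose, with a median of 0.93, and among residency genes 3 of 20, Inpp4b, Litaf (0.89, adjusted p = 0.0214) and Itga1 (1.20, adjusted p = 0.0405), with a median of 0.85. None of the 13 naive and stem-like regulators passed at this step, with a median of -0.43.

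The count of this step was 62, 84 and 157 without the first, second and the third library of week 1 and 150, 143 and 142 without those of week 2, and 109 with only these groups in the fit. Tox lost its call at this step without the first or second library of week 1 (0.077 and 0.075) or the first of week 2 (0.064). Pdcd1 lost it without the first or second library of either week (0.07 to 0.097) and Fasl without the second of week 1 (0.066). The Litaf and Itga1 calls were lost without the first or second of week 1 or the second or the third of week 2, with adjusted p from 0.063 to 0.216.

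Between weeks 2 and 4, 0 of 10560 genes were called by limma, 0 with limma after quantile normalization and 765 had an unadjusted p below 0.05. Week 4 has 2 libraries, from different runs of library codes. Tcf7 had the difference -1.35 (adjusted p = 0.253), Tox 0.69 (adjusted p = 0.612) and Klf2 -1.31 (adjusted p = 0.677). Leaving out the first week 4 library gave 12 calls and the third week 2 library 3. With the unreduced degrees of freedom the count was 99.

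From week 4 to week 6, 33 genes were called, 0.312%, 27 higher (0.256%) and 6 lower (0.0568%). Abca1, the cholesterol exporter, rose by 1.59 (adjusted p = 0.0203), Acp5, a phosphatase of macrophages and osteoclasts, by 1.44 (adjusted p = 0.0203), Sfmbt2, a Polycomb protein, by 1.98 (adjusted p = 0.0203) and March3, a ubiquitin ligase, by 1.66 (adjusted p = 0.0203). The mean over the myeloid markers given above was also higher at week 6 than at week 4. Its part in these rises was not tested. Mms22l, a factor of replication fork repair, fell by 0.84 (adjusted p = 0.0203) and Dnaja1, a heat shock co-chaperone, by 1.00 (adjusted p = 0.0203). Of the naive and stem-like regulators none passed here, and neither did Tox (-0.25) or Pdcd1 (-0.23). This count was 0 without any 1 of the 3 week 6 libraries, 5 without the second week 4 library and 54 without the first, 13 after quantile normalization, with 8 higher and 5 lower, and 1 within the largest run of library codes, where week 4 keeps 1 library.

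Between weeks 2 and 6, the course after the first step, 68 genes were called (0.644%), 52 higher (0.492%) and 16 lower (0.152%), and the median over all genes was 0.05. The late falls included genes of the lists above: Satb1 fell by 1.08 (SE 0.24, adjusted p = 0.0359), Klf2 by 2.29 (SE 0.53, adjusted p = 0.0476), Itgb7 by 1.68 (SE 0.38, adjusted p = 0.0444), Ly6c2 by 1.49 (SE 0.33, adjusted p = 0.0397) and Plac8 by 1.65 (SE 0.29, adjusted p = 0.0134). The late rises included Ccl5 by 1.37 (SE 0.25, adjusted p = 0.0143) and Gzma, a granzyme, by 2.28 (SE 0.44, adjusted p = 0.0211). Gzma read -5.83, -6.26 and -4.64 at week 2 and -3.31, -3.32 and -3.25 at week 6. Of the myeloid markers 3 rose: Lyz2, lysozyme, by 2.17 (adjusted p = 0.012), Apoe, a lipid carrier of macrophages, by 2.11 (adjusted p = 0.012), and Cd68, a lysosomal protein of macrophages, by 1.35 (adjusted p = 0.0307). The median of the 16 markers was 1.43 and all 16 differences were positive. Lyz2 read 0.24, 0.02 and 0.07 at week 1, -1.71, -0.80 and -1.77 at week 2 and 0.72, 0.71 and 0.79 at week 6, so week 2 was the low point. In the same interval Tox differed by 0.44 (adjusted p = 0.485), Pdcd1 by 0.25 (adjusted p = 0.867) and Vipr2 by 0.10 (adjusted p = 0.956).

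This count fell to 1 without the first or the third library of week 6, to 11 without the second, to 43 and 6 without the second and the third of week 2, and to 2 with only these groups in the fit. It was 17 within the largest run of codes. Quantile normalization left 31 genes higher and 23 lower. Each of the 10 genes named above for this interval lost its call without at least 3 single libraries, with adjusted p up to 0.196. Kif5c, among the rises of smallest p, kept its call without each single library (limma adjusted p up to 0.033). It read 9.41, 8.68 and 8.97 at week 2 and 11.06, 11.03 and 10.91 at week 6. Its call was lost in 1 of 21 alternatives.

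Over all 4 weeks, limma's F test called 545 genes, 5.16% of those tested. Of these, 268 had their highest mean at week 1, 23 at week 2, 127 at week 4 and 127 at week 6, and 180, 132, 165 and 68 had their lowest mean at those weeks. Over all 10560 genes the highest mean was at week 1 in 3189, week 2 in 1552, week 4 in 2827 and week 6 in 2992. The lowest mean was at week 1 in 2959, week 2 in 2613, week 4 in 2822 and week 6 in 2166. Week 4 means rest on 2 libraries. The 142 genes higher at week 6 than at week 1 had on the median covered 59.3% of that change at week 2 and 86.8% at week 4, and 26 of them also passed between weeks 1 and 2 and 9 between weeks 2 and 6. The 145 lower genes had covered 53.5% and 79.2%, with 33 and 11. These shares share the week 1 libraries with the rule that chose the genes and are a description only. Of the genes called in both intervals, weeks 1 to 2 and weeks 2 to 6, in opposite directions, 18 fell and then rose, among them Dst, Cald1, Acp5 and Sept8, a septin, and 2 rose and then fell. Dst had means of 11.75, 9.36, 9.67 and 10.96. Stroma markers (0.65 to 0.71, -1.50 to -0.24 and 0.24 to 0.52 at weeks 1, 2 and 6) and myeloid markers (-0.34 to 0.14, -1.26 to -0.19 and 0.44 to 0.59) were lowest at week 2 as well, and their part in these courses was not tested. The return between weeks 2 and 6 lost its call for each of these 4 genes without the first or the third library of week 6, for Cald1, Acp5 and Sept8 also without the third of week 2 and for Acp5 without the second of week 6 (adjusted p up to 0.104). The fall of Sept8 lost its call without the first or the third library of week 1 or the second or the third of week 2 (up to 0.07). The 2 genes that rose and then fell were Mms22l, with means of 9.60, 10.15, 10.26 and 9.42, and Nt5e, the ectoenzyme CD73, with means of 10.25, 11.21, 11.04 and 10.26. Single libraries ended these calls too. For Mms22l the rise was lost without each of week 1 or the second or the third of week 2 (up to 0.116) and the fall without the third of week 2 or each of week 6 (up to 0.09). For Nt5e the rise was lost without the first or second of week 1 or the second of week 2 (up to 0.133) and the fall without the second of week 1 or any library of weeks 2 and 6 (up to 0.18). Both intervals use the week 2 libraries. The count of the F test was 199, 231 and 353 without the first, second and the third library of week 1, 359 without the second of week 4, 351, 352 and 349 without those of week 6, and 182 within the largest run of codes.

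The change between weeks 1 and 6 was then compared with that of DP, the other CD69+ subset. The difference of the changes passed for 857 genes, 8.12%, with 277 in which SP had changed by more in the positive direction (2.62%) and 580 in the negative (5.49%); rescaling to equal medians gave 362 and 416. Fasl was higher at week 6 in both, with means of 9.39 and 10.55 in SP and of 7.39 and 10.12 in DP, a difference of the changes of -1.58 (SE 0.24, adjusted p = 0.000544). Cd8a had week 1 means of 9.55 in SP and 8.33 in DP and week 6 means of 10.17 and 9.96 (-1.01, SE 0.19, adjusted p = 0.00283). Stat4, the factor downstream of IL-12, had means of 5.70 and 5.83 in SP and of 4.01 and 5.77 in DP (-1.63, SE 0.18, adjusted p = 3.73e-05). Glul, glutamine synthetase, had means of 3.04 and 2.54 in SP and of 6.07 and 2.49 in DP (3.07, SE 0.32, adjusted p = 1.13e-05), and Cd164, a sialomucin, of 4.42 and 4.70 against 6.41 and 4.43 (2.26, SE 0.18, adjusted p = 2.76e-07). In each of these genes the subsets lay apart at week 1 and close together at week 6. The DP libraries of week 1 had the widest spread of any tumor or spleen group, with a median SD over genes of 0.289 against 0.167 in SP, and a CD8 T-cell marker mean of -0.84 to -0.77 against -0.12 to -0.05. Their epithelial marker means were 1.94 to 2.76 against -0.20 to 0.30 in DP at week 6, where SP had 1.67 to 1.99 and 0.07 to 0.23. Their stroma means were 0.18 to 1.77 against -0.28 to 0.24, and their erythroid and platelet means 0.47 to 1.74 against -0.89 to -0.42. The part of these libraries and markers in the differences above and in the group counts that follow was not tested. Gene groups differed as well: 17 of 39 proliferation genes had a more negative change in SP than in DP, none a more positive one, and the median was -1.14, beside -0.04 over all genes. The same held for 11 of 28 interferon-stimulated genes (median -0.98), 9 of 20 T-cell receptor genes (median -0.54) and 7 of 14 granule and death genes (median -1.26). The mean over the proliferation list was 0.32 at week 1 and 0.07 at week 6 in SP, and -0.52 and 0.35 in DP.

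Among genes named for the SP course, the difference of the changes passed for Fasl, Itgb7 and Ly6c2. It did not pass for Tox, Pdcd1, Satb1, Cxcr6, Vipr2 or Klf2. It was 0.43 for Tox (SE 0.34, adjusted p = 0.478), -1.20 for Pdcd1 (SE 0.49, adjusted p = 0.137), -0.86 for Satb1 (SE 0.33, adjusted p = 0.115), -0.47 for Cxcr6 (SE 0.31, adjusted p = 0.387), 1.11 for Vipr2 (SE 0.47, adjusted p = 0.151) and -1.75 for Klf2 (SE 0.75, adjusted p = 0.156). At week 6 the SP libraries read 9.72 to 9.83 for Tox, where the DP mean was 8.97. For Satb1 they read 3.10 to 3.42 where DP read 3.88 to 3.95, so the subsets did not overlap in Satb1 at that week. None of the 13 naive and stem-like regulators passed in this comparison. For Itgb7 the SP change differed from that of DP by -2.08 (adjusted p = 0.0213), and for Ly6c2 by -2.48 (adjusted p = 0.00287). Itgb7 had week 1 and week 6 means of 2.42 and 2.17 in DP, where SP went from 2.59 to 0.26.

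**Figure D4:**
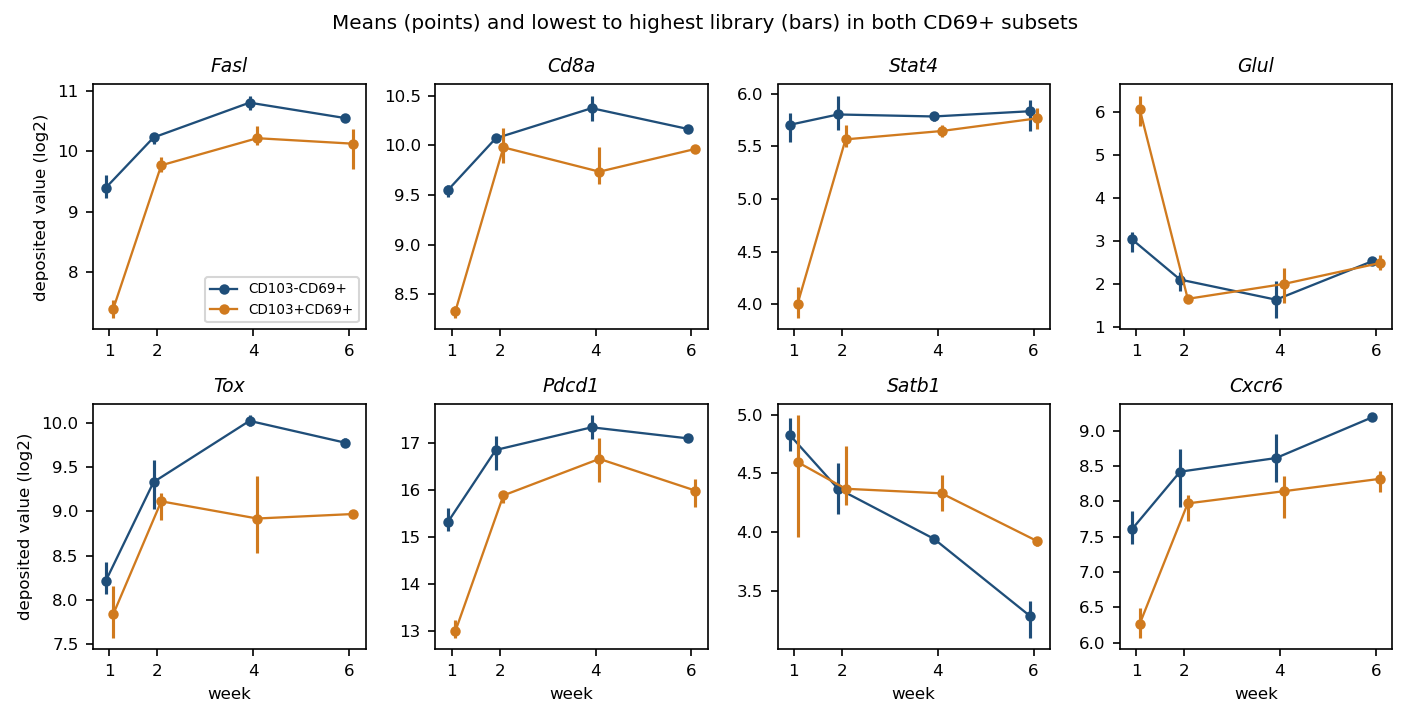
Means of 8 genes (points) against week in CD103-CD69+ and CD103+CD69+ tumor cells, with bars from the lowest to the highest library; the y axis is the deposited value, read as log2, and differs between panels. For Fasl, Cd8a, Stat4 and Glul the subsets are far apart at week 1 and close at week 6, and for Satb1 they are close at week 1 and apart at week 6.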

How the data were processed

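CD8+ T cells were sorted from AT3-OVA tumors and sequenced with QuantSeq 3' mRNA-Seq, per the labels' protocols. HISAT2, HTSeq and mm10 are named in the submitters' processing notes, with versions not given in the sources used here. The authors deposited normalized values on a scale read here as log2, and the normalization is not given. Per-gene counts were not analysed here, so depth and counting error are unknown. The untreated table holds 43 libraries and 10560 genes, and columns were matched to samples by the library code in their descriptions. Its rank once genes were centred was 32 of a possible 42, so some variation had been removed before deposit. The residual rank was 18 against 28 degrees of freedom, and the ratio, 0.643, was used to reduce the degrees of freedom and enlarge the variances.

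limma 3.58.1 in R 4.3.3 was fitted to all 15 untreated groups, the spleen groups among them. The fit had a mean-variance trend and robust estimation (statmod 1.5.0), no filter and Benjamini-Hochberg adjustment over all genes. Every adjusted p comes from limma. A list's level is the mean over members of the value minus the gene's mean over the table. Genes were named by list (the 4 smallest p), by size of change among non-overlapping genes, by smallest p per step and by turning course; other members were named after their values were seen. The members and lists were chosen with earlier results of these data known. The procedure was also run on simulated data with the same spread in all groups. The real groups differ in spread, with a median SD over genes of 0.113 in SP at week 6 and 0.203 at week 2. No conclusion is drawn from that run. Alternatives covered scaling, filter, model, replicate block, library code run and each library left out. All kept the ratio 0.643, except the one with degrees of freedom taken from the design. The residual rank was full with only the CD103-CD69+ groups in the fit (7 of 7) and after quantile normalization (28 of 28).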

Additional observations from a re-analysis of the deposited data

Results flagged for a closer look

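The test of the difference between the changes of CD103-CD69+ and CD103+CD69+ cells from week 1 to week 6 singled out 857 genes (limma, adjusted p below 0.05). The 6 with the smallest p differed by 2.26 (Cd164), 2.23 (Ube2q2, a ubiquitin-conjugating enzyme), 3.07 (Glul), -1.63 (Stat4), 2.15 (Sfn, the 14-3-3 sigma protein) and 1.72 (D17H6S56E-5) on the log2 scale, where a positive value is a more positive change in CD103-CD69+ cells. Fasl, at -1.58, and Cd8a, at -1.01, passed the same test. The week 1 libraries of CD103+CD69+ cells enter every one of these values, with a median SD over genes of 0.289. Their epithelial marker means were 1.94 to 2.76, against -0.20 to 0.30 at week 6, and their stroma means 0.18 to 1.77, against -0.28 to 0.24; the part of these markers was not tested.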

How the results depend on the processing

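Depth is unknown, week 4 has 2 libraries, and leaving out 1 of them assumes that the other varies like the rest. Counts of genes called are given in the order week 6 against 1, week 2 against 1, week 4 against 2, week 6 against 4, week 6 against 2, the whole course, and the difference from CD103+CD69+ cells, from 287, 282, 0, 33, 68, 545 and 857. With degrees of freedom taken from the design they were 1380, 1105, 99, 506, 716, 2520 and 2304. With only the groups compared they were 61 (week 6 against 1), 109 (2 against 1), 1 (6 against 4), 2 (6 against 2), 96 (course) and 483 (difference). Adding a term for the run of library codes gave 160 (6 against 1), 0 (6 against 4), 17 (6 against 2) and 309 (course), and within codes 18 to 42, added after seeing the data, 73, 1, 17 and 182. Quantile normalization gave 13 for week 6 against 4. Leaving out single libraries gave 69 to 347, 62 to 294, 0 to 12, 0 to 54, 1 to 76, 199 to 605 and 578 to 904. Median rescaling split week 6 against 4 into 19 higher and 7 lower. The counts under the remaining settings, without the CD103+CD69+ libraries of week 1 among them (422 for week 6 against 1), were within 1.5 times. Of 58 named genes called between weeks 1 and 6, 43 lost the call in at least 1 of 21 alternatives and 0 changed sign. Among genes not called, Itga2b turned to -0.0376 with the run term. Leaving out single libraries moved Itga2b between -0.0496 and 0.156, Itgae between -0.423 and 0.256 and Xcl1 between -0.227 and 0.237, where the third week 1 library gave the positive values of the last 2. Replicate numbers as a block gave 261, 287, 0, 27, 62, 566 and 830. Same-numbered CD103-CD69+ libraries of different weeks did not deviate together (r from -0.345 to 0.109 over 15 pairs, 0 of 11 libraries best with its own number). Whether CD103-CD69+ and CD103+CD69+ libraries of the same week are paired was not examined. The test of the difference between these subsets treated them as unpaired. The causes of these shifts were not tested.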

Other observations

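In CD103-CD69+ cells, Vegfa, the vascular growth factor, fell by 2.72 between weeks 1 and 2 (SE 0.43, limma adjusted p = 0.00186) and rose by 2.03 between weeks 2 and 6 (SE 0.43, adjusted p = 0.0307). Its means were 11.16, 8.44, 10.40 and 10.47 at weeks 1, 2, 4 and 6. The rise lost its call without any 1 of the 6 libraries of weeks 2 and 6, with adjusted p up to 0.137. Vegfa was the 1 gene called among 24 glycolysis and hypoxia genes in each interval. Of the 24, 23 had a negative difference between weeks 1 and 2 (median -0.27), as had 54.5% of all genes, and 23 a positive one between weeks 2 and 6 (median 0.35), as had 57.8% of all genes. Between weeks 2 and 4 the median was 0.16, with 19 positive and none called.

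Among 39 proliferation genes none was called between weeks 1 and 2, where 33 had a positive difference (median 0.26; 45.5% of all genes were positive). Between weeks 2 and 6, 1 was called, Mcm7, a replicative helicase subunit (-0.49, adjusted p = 0.029), and 39 had a negative difference (median -0.49), as had 42.2% of all genes. The Mcm7 call was lost without the second or the third library of week 2 or any of week 6, with adjusted p up to 0.137. Over the same interval, differences were negative in 28 of 28 interferon-stimulated genes (median -0.42, none called) and in 22 of 23 immediate-early genes (median -0.55, none called). These signs are a description: the intervals share the week 2 libraries, and genes of a list are not independent. Epithelial, stroma and myeloid markers moved over the same weeks, as given above, and their part was not tested.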
